A study of Mus musculus with 24 samples.

Results

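The 28 genes examined here make cholesterol or set the output of its main regulator, the transcription factor SREBP2. They were chosen by name from the 24443 gene names of each deposited table, and all 28 were found in every table. Of these, 19 encode synthesis enzymes, namely 8 of the mevalonate segment, 3 of the squalene segment and 8 of the sterol segment. Another 4 (Srebf2, Scap, Insig1 and Insig2) control SREBP2, and 5 (Stard4, Mylip, Abca1, Abcg5 and Abcg8) move sterols or set their uptake and export.

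Total RNA of liver from male C57BL/6 mice was depleted of ribosomal RNA and sequenced by the study. The question was which genes of the liver answer to fasting, to the repressor BCL6 and to the nuclear receptor PPARα. In all, 5 groups of 4 libraries were compared, which makes 20 of the 24 labelled samples, and 4 labelled samples of fasted Bcl6LKO liver were not used. Fasted WT and fed WT mice both carried floxed Bcl6 (Bcl6 fl/fl) without Cre. Fed Bcl6LKO mice (Bcl6 fl/fl; Alb-Cre) lost Bcl6 in cells that use the albumin promoter, mainly hepatocytes. Fasted PparaKO mice were labelled Ppara-/- with no floxed allele named, so they differed from fasted WT mice in that respect too. Fasted DKO mice (Ppara-/-;Bcl6 fl/fl; Alb-cre) combined both losses. Ages are not given in the sources used here. Nothing in the labels ties each library to its own animal, so the p-values reflect spread among libraries, which may be technical.

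Hepatocytes build cholesterol from acetyl-CoA in a long chain of steps on the endoplasmic reticulum. When membranes are poor in sterol, the escort protein SCAP carries SREBP2 to the Golgi, where it is cut and released to switch on nearly every enzyme of the chain. INSIG proteins hold SCAP and SREBP2 back when sterols are plentiful. Insulin and feeding favour SREBP activity, and fasting lowers it. In these bulk samples, fewer cells of a type and less RNA per cell cannot be told apart.

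Promoters were examined because SREBP2 binds the sterol regulatory element (SRE) and usually needs the factor NF-Y, which binds the CCAAT box. Windows of 300 bases around RefSeq start sites (GRCm38.p6) were at hand for 24 of the 28 genes, 31 windows in all. Fdps, Fdft1, Sqle and Stard4 had none. The following windows show the enzymes with the largest fasting falls among genes that had one, the paired inhibitors Insig1 and Insig2, and the opening of the divergent Abcg5 and Abcg8 pair. Capitals mark the SRE letters TCACNCCAC and the letters CCAAT or their reverse complement.
Hmgcs1: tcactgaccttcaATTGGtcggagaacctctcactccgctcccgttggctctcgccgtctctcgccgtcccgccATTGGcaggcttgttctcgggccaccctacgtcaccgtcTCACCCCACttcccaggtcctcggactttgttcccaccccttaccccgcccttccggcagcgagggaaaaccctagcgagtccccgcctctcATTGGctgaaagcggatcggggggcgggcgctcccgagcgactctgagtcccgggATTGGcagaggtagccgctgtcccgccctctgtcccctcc
Nsdhl: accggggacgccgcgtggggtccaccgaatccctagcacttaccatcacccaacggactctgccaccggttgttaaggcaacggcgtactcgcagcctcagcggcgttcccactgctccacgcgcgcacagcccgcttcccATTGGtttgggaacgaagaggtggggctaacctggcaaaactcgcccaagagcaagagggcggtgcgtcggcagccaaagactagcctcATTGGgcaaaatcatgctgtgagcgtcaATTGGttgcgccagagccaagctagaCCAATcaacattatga
Insig1: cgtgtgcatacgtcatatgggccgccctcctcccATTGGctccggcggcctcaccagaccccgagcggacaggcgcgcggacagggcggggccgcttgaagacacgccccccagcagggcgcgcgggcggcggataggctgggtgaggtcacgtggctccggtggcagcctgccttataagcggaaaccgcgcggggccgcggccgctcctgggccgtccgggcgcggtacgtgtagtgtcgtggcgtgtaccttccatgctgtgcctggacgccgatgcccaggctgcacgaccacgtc
Insig2: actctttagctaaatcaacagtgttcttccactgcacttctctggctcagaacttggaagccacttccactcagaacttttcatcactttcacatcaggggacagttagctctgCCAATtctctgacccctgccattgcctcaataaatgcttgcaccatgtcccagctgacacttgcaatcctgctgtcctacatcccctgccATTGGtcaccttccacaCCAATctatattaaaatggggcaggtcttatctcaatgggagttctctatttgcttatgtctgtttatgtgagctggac
Abcg8: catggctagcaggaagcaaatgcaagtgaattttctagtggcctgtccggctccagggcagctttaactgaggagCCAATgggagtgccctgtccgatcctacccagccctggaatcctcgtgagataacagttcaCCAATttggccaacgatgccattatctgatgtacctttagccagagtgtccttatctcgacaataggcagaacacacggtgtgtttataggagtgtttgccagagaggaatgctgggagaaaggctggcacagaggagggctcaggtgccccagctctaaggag

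The Hmgcs1 window lies at chr13:119690101-119690400 on the plus strand and holds the SRE match TCACCCCAC, whose first base is 137 bases before the start, with 4 CCAAT boxes around it. The Nsdhl window at chrX:72918271-72918570, plus strand, has 4 CCAAT boxes and no match to the SRE letters. Insig1 (chr5:28071162-28071461, plus strand) has 1 CCAAT box, and the outermost of 3 Insig2 windows (chr1:121332540-121332839, minus strand) has 3. The inner Insig2 windows, at chr1:121327629-121327928 and chr1:121327975-121328274, have 0. Abcg5 and Abcg8 start 110 bases apart on opposite strands of chromosome 17. The Abcg8 window shown (chr17:84682871-84683170, plus strand) overlaps the Abcg5 window by 209 bases.

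Among the 24 genes with a window, 21 (87.5%) had a CCAAT box, against 41.1% of all 27025 genes in the promoter table and 37.4% of its 32851 windows. The exact SRE letters were in 1 (4.17%), Hmgcs1, against 1.44% of all genes and 1.24% of windows. E boxes (CACGTG), a motif to which SREBPs and other factors also bind, were in 6 (25.0%), against 8.09% of all genes and 7.15% of windows. Both strands were searched, and no match of 1 motif overlapped a match of another. A gene with several windows has more chances to hold a match. The 3 genes without a CCAAT box were Acat2, Scap and Abca1.

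**Figure D1:**
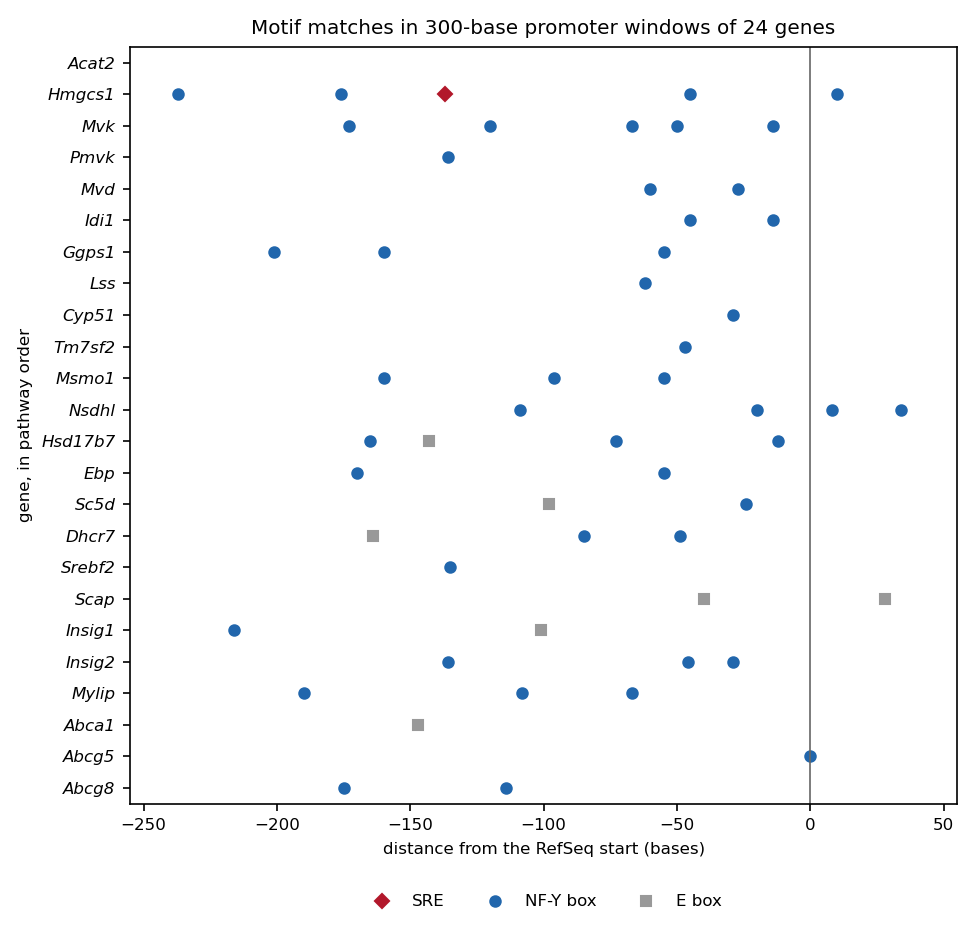
Positions of motif matches in the promoter windows of 24 genes, in bases from the RefSeq start (negative is upstream); blue circles are CCAAT boxes (labelled NF-Y box), grey squares E boxes and the red diamond the SRE match. CCAAT boxes appear in 21 of the 24 rows and the single SRE match, 137 bases upstream, is in Hmgcs1.

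Levels are log2 values as the study deposited them, in 4 tables of 8 libraries that were each scaled on their own. A gene was tested where its mean was at least 4 and was called changed at a limma p of less than 0.05 after Benjamini-Hochberg adjustment over all genes tested. Comparisons of fed WT or fasted WT with several other groups reuse the same control libraries. Hepatocyte markers were high in all libraries, with Alb log2 levels between 18.45 and 21.22. Alb itself was higher in Bcl6LKO (1.84, SE 0.24) and DKO (1.05, SE 0.24) than in WT livers, and lower in PparaKO livers (-0.68, SE 0.22). Among other tissues, the pancreas gene Prss2 and the adipose and muscle genes Lep and Myh4 were listed at 0 in every library of the fasting and Bcl6LKO tables. Not all markers of these tissues were absent. The pancreas gene Cela1 averaged 6.40 in fasted WT and 7.16 in fed WT livers, and of 5 pancreas genes 0 were listed at 0 throughout the DKO table. The targeted genes went with their labels only in part. Bcl6 averaged lower in fed Bcl6LKO than in fed WT livers, by -1.53 (SE 0.45, limma adjusted p = 0.0207), although fed WT replicate 1 (8.02) lay below Bcl6LKO replicate 3 (8.54). In the combined-loss comparison Bcl6 reads gave -0.39 (SE 0.47, limma adjusted p = 0.540), so a lower Bcl6 level in DKO livers was not called in these gene-level values. The study describes a deletion that shifts the reading frame, and reports reduced Bcl6 mRNA by qPCR and reduced protein in Bcl6LKO livers. How far reads from the rest of the deleted allele entered the gene's level is not known here. Fasted WT replicates 1 and 2 had Bcl6 at 8.85 and 9.39 in that table, against 7.32 and 6.95 in replicates 3 and 4. Ppara, of which the null allele still yields reads, was lower by -1.04 (SE 0.08, limma adjusted p = 3.82e-06) in PparaKO and by -1.77 (SE 0.19, limma adjusted p = 4.53e-05) in DKO livers.

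Fasting lowered most of the synthesis chain. Of the 28 genes, 18 were lower in fasted WT than in fed WT livers, and 1, Mylip, was higher. Across all 11910 genes tested, 11.0% were lower and 11.9% higher. The median difference of the 28 genes was -0.71, against -0.0025 over all tested genes. Of the lower genes 9, all of them synthesis enzymes, fell by more than a fold of 2, a change that 0.537% of all tested genes showed in this direction and 0.621% in the other. Group ranges did not overlap for 16 lower genes and 1 higher gene, with 12.6% and 13.7% of all genes as the background. Scaling libraries to equal totals called 20 of the 28 lower, but it turned the split over all genes to 810 higher and 3293 lower (19.7% higher) in place of 1416 and 1309 (52.0% higher).

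**Figure D2:**
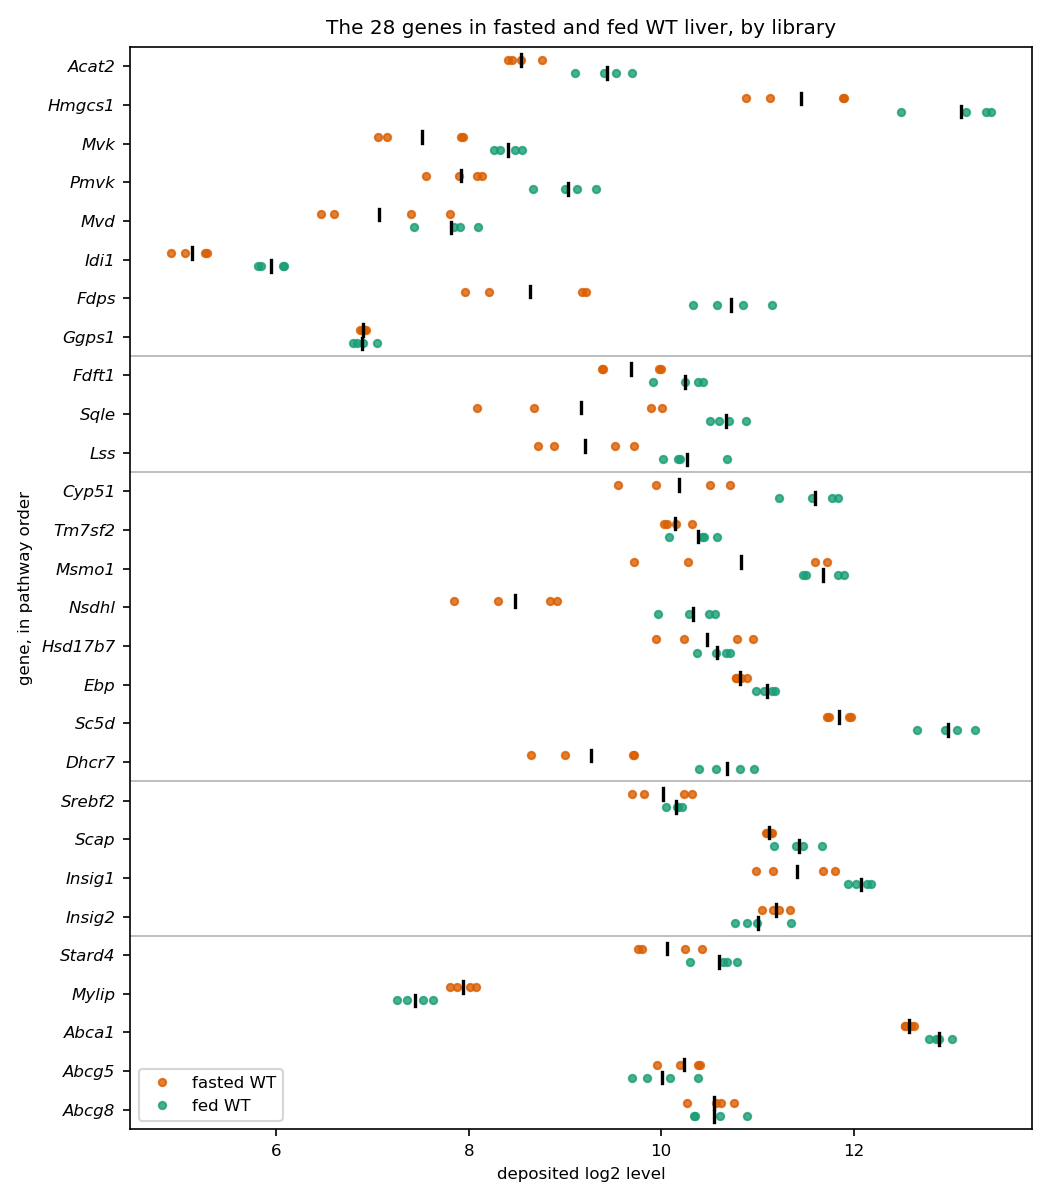
Deposited log2 levels (x axis) of the 28 genes in pathway order (y axis) in fasted WT (orange, upper row of each gene) and fed WT (green, lower row) liver libraries, with black bars for the means of 4. Fdps, Nsdhl and Hmgcs1 show the widest gaps, while Ggps1 and Abcg8 lie on top of each other.

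The mevalonate segment opens the chain. Acat2, which joins acetyl-CoA units, had 8.40, 8.45, 8.54 and 8.76 in fasted WT livers, against 9.54, 9.11, 9.41 and 9.70 in fed WT livers. Hmgcs1, the cytosolic HMG-CoA synthase (chr13:119690379-119708260), had 10.88, 11.13, 11.89 and 11.90 in fasted WT, against 13.17, 12.50, 13.37 and 13.43 in fed WT. All fasted libraries lay below all fed ones for both genes. The difference was -0.90 (SE 0.12, limma adjusted p = 6.84e-04) for Acat2 and -1.67 (SE 0.26, limma adjusted p = 0.00171) for Hmgcs1, a fasted level of 0.315 of the fed one.

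Mevalonate is then phosphorylated by Mvk and Pmvk and decarboxylated by Mvd. Pmvk had 7.56, 7.90, 8.09 and 8.13 in fasted WT livers, against 9.13, 8.67, 9.003 and 9.32 in fed WT livers, a difference of -1.11 (SE 0.15, limma adjusted p = 7.24e-04). Mvk fell by 0.89 (SE 0.20). Mvd differed by -0.75 (SE 0.27) and was not called (limma adjusted p = 0.0745), and fasted replicate 4 (7.81) reached the fed range. Same-numbered fasted and fed libraries varied together, and with the replicate number as a block Mvd was called at a limma adjusted p of 0.0101.

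Isoprene units are isomerised by Idi1 and joined by Fdps, the farnesyl diphosphate synthase (chr3:89093588-89101959). Fdps showed the largest difference of the 28 genes. It had 7.96, 8.21, 9.18 and 9.21 in fasted WT livers, against 10.58, 10.33, 10.85 and 11.16 in fed WT livers. The groups were more than a log2 unit apart even at their nearest libraries. It fell by 2.09 (SE 0.29, limma adjusted p = 7.69e-04), to 0.235 of the fed level. Annotated exons of Gm43738 share 26.7% of the Fdps exon bases on the same strand, so the reads of these 2 models cannot be told apart there. Idi1 fell by 0.82 (SE 0.10). Ggps1, which extends farnesyl diphosphate towards geranylgeranyl groups and so leaves the sterol route, differed by 0.01 (SE 0.06) and was not called.

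The squalene segment commits farnesyl units to sterols. Fdft1, the squalene synthase, fell by 0.56 (SE 0.16, limma adjusted p = 0.0337) with fasted libraries reaching the fed range, and 18.3% of its exon bases lie opposite exons of Ctsb. Its call was lost with robust spread estimates and without fasted WT replicate 1 or 2 or fed WT replicate 1, 3 or 4 (limma adjusted p between 0.0640 and 0.0926). Sqle, the squalene epoxidase (chr15:59315077-59331192), had 8.09, 8.68, 10.01 and 9.89 in fasted WT livers, against 10.60, 10.51, 10.71 and 10.88 in fed WT livers. Fasted replicates 1 and 2 lay far below fasted replicates 3 and 4, which in turn stayed below every fed library. Its difference of -1.51 (SE 0.37, limma adjusted p = 0.0152) was no longer called with robust spread estimates (limma adjusted p = 0.0617). Lss, which closes the rings of lanosterol, had 8.72, 8.89, 9.52 and 9.72 in fasted WT, against 10.18, 10.02, 10.19 and 10.68 in fed WT, and fell by 1.06 (SE 0.22, limma adjusted p = 0.00674).

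In the sterol segment, lanosterol is demethylated, reduced and desaturated to cholesterol. Cyp51, the lanosterol demethylase, had 9.56, 9.95, 10.71 and 10.51 in fasted WT livers, against 11.57, 11.22, 11.78 and 11.84 in fed WT livers. Nsdhl, a dehydrogenase of the same demethylation, had 7.84, 8.31, 8.85 and 8.91 in fasted WT, against 10.29, 9.97, 10.50 and 10.56 in fed WT. The lowest fed library exceeded the highest fasted one by about a log2 unit for Nsdhl. Cyp51 fell by 1.42 (SE 0.23, limma adjusted p = 0.00201) and Nsdhl by 1.85 (SE 0.22, limma adjusted p = 3.82e-04), to 0.277 of its fed level.

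The closing steps moved with them. Sc5d, the desaturase, had 11.74, 11.72, 11.95 and 11.97 in fasted WT livers, against 13.08, 12.66, 12.95 and 13.26 in fed WT livers. Dhcr7, the last reductase, had 8.65, 9.01, 9.71 and 9.72 in fasted WT, against 10.57, 10.39, 10.82 and 10.97 in fed WT. Neither gene's groups overlapped. Sc5d fell by 1.14 (SE 0.12, limma adjusted p = 1.59e-04) and Dhcr7 by 1.42 (SE 0.23, limma adjusted p = 0.00194). Ebp, the isomerase, fell by only 0.28 (SE 0.05). Not called were 3 sterol enzymes, namely Tm7sf2 at -0.24 (SE 0.10), Hsd17b7 at -0.10 (SE 0.19) and Msmo1 at -0.85 (SE 0.39). Msmo1, the methyl oxidase, had 9.72, 10.28, 11.59 and 11.73 in fasted WT livers, against 11.50, 11.47, 11.90 and 11.84 in fed WT livers, and was called with the replicate block (limma adjusted p = 0.0382).

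Among the control genes, Insig1 fell while Srebf2 itself was not called. Srebf2 had 9.69, 9.83, 10.23 and 10.32 in fasted WT livers, against 10.16, 10.05, 10.18 and 10.22 in fed WT livers, a difference of -0.14 (SE 0.13, limma adjusted p = 0.476). Insig1, itself a target of SREBP2, had 10.98, 11.17, 11.68 and 11.80 in fasted WT, against 12.03, 11.95, 12.14 and 12.18 in fed WT, and fell by 0.66 (SE 0.16, limma adjusted p = 0.0154). Insig2 had 11.34, 11.17, 11.23 and 11.05 in fasted WT, against 11.35, 11.00, 10.76 and 10.90 in fed WT. Its difference of 0.20 (SE 0.11, limma adjusted p = 0.246) was not called. Fed replicate 1 was as high as any fasted library, and without it the difference was 0.31 and was called (limma adjusted p = 0.0239). Scap had 11.10, 11.09, 11.15 and 11.14 in fasted WT livers, against 11.40, 11.17, 11.48 and 11.67 in fed WT livers, a difference of -0.31 (SE 0.09, limma adjusted p = 0.0292) whose call was lost without any 1 fasted WT library and without fed WT replicate 3 or 4 (limma adjusted p between 0.0525 and 0.0699).

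Sterol transport genes moved less and in both directions. Mylip, the ubiquitin ligase that degrades lipoprotein receptors and is induced by the sterol sensor LXR, had 8.07, 7.88, 8.02 and 7.81 in fasted WT livers, against 7.52, 7.63, 7.36 and 7.25 in fed WT livers. It was higher by 0.50 (SE 0.09, limma adjusted p = 0.00318), with no overlap. Abca1, which loads cholesterol onto nascent HDL, had 12.53, 12.59, 12.63 and 12.54 in fasted WT, against 12.85, 12.78, 12.89 and 13.02 in fed WT, a difference of -0.31 (SE 0.06, limma adjusted p = 0.00392). Stard4, a soluble sterol carrier, fell by 0.54 (SE 0.16, limma adjusted p = 0.0306), a call lost with robust spread estimates and without fasted WT replicate 1 or 2 or fed WT replicate 1, 3 or 4 (limma adjusted p between 0.0633 and 0.0858).

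Abcg5 and Abcg8 form the heterodimer that exports sterols into bile. Abcg5 had 10.38, 10.41, 10.20 and 9.96 in fasted WT livers, against 10.39, 10.09, 9.85 and 9.70 in fed WT livers. Abcg8 had 10.76, 10.62, 10.56 and 10.27 in fasted WT, against 10.90, 10.61, 10.34 and 10.35 in fed WT. In both groups replicate 1 was high and replicate 4 low or nearly so for both genes. Differences were 0.23 (SE 0.15) for Abcg5 and 0.01 (SE 0.13) for Abcg8, and only Abcg5 was called with the replicate block (limma adjusted p = 0.0355), which brought the totals to 20 lower and 2 higher genes. The 2 genes share 82 exon bases on opposite strands, and whether the counting used strand is not given in the sources used here.

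The enzymes varied together from library to library. In fasted WT livers the mean deviation of the 19 enzymes from the fed WT mean was -1.42, -1.23, -0.66 and -0.61 in replicates 1 to 4, against -0.03, -0.28, 0.10 and 0.21 in fed WT livers. Fasted replicate 1 held the lowest level of its group for 13 of the 19 enzymes and replicate 4 the highest for 14. Among fed WT libraries, replicate 2 was lowest for 17 enzymes and replicate 4 highest for 14. These libraries are the controls of the 3 other comparisons as well, so their spread enters each of them. Fasted WT replicates 1 and 2, the lower ones for the enzymes, were also those with more Bcl6 RNA, at 9.08 and 9.57 in the fasting table, against 7.80 and 7.52 in replicates 3 and 4. Fed WT livers showed the opposite order. There replicates 3 and 4, the higher ones for the enzymes, had more Bcl6 RNA, at 10.40 and 10.10, against 8.19 and 9.30 in replicates 1 and 2. The part of Bcl6 level in the enzyme levels was not tested.

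**Figure D3:**
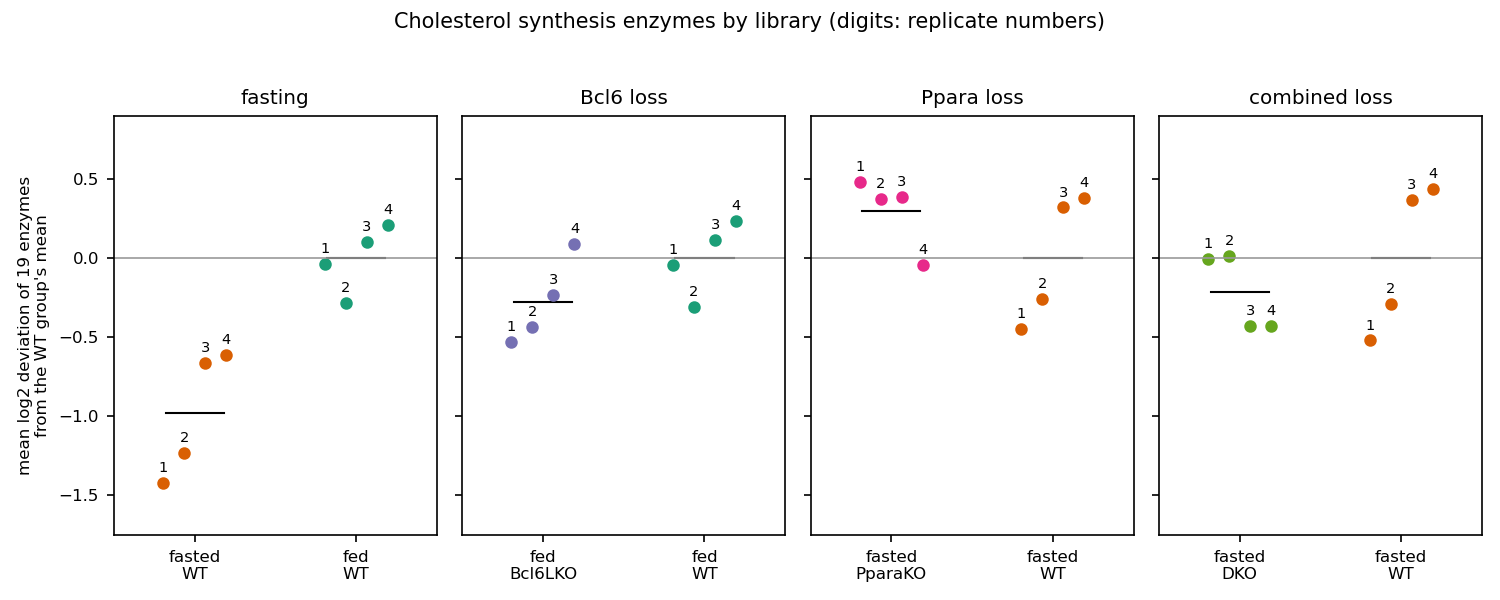
Mean log2 deviation of the 19 synthesis enzymes from the mean of the WT group in the same table (y axis), for each library (points, replicate number above) of each group (x axis) in the 4 comparisons, with black bars for group means. Fasted WT replicates 1 and 2 (-1.42 and -1.23) and 3 and 4 (-0.66 and -0.61) sit apart, and PparaKO replicate 4 (-0.04) sits below the other PparaKO libraries.

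In fed liver with Bcl6 loss some enzymes and Srebf2 were called lower, but the share of lower genes was not far above that of all genes. By limma, 8 of the 28 genes (28.6%) were lower in fed Bcl6LKO than in fed WT livers and 0 were higher (11 and 0 at an unadjusted p under 0.05), against 19.8% lower and 18.3% higher among 12115 tested genes. None of the 28 passed a fold of 2, which 1.53% of all genes did downwards and 2.70% upwards, and group ranges were apart for 3 lower genes, against 19.4% of all genes. The median difference was -0.25, against -0.0074 over all tested genes. Without fed WT replicate 2 the count was 14 lower genes, and without Bcl6LKO replicate 4 it was 12. When libraries were scaled to equal totals, the median over all genes moved to -0.22, 19 of the 28 genes were called lower and none higher, and the split over all genes went to 976 higher and 6892 lower (12.4% higher) in place of 2212 and 2394 (48.0% higher). Alb alone took between 15.3% and 16.5% of the summed level in Bcl6LKO libraries, against between 3.79% and 6.38% in fed WT libraries.

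Of the synthesis enzymes, 6 of 19 (31.6%) were lower with Bcl6 loss, against 19.8% of all tested genes. The largest difference was in Msmo1, with 10.57, 10.72, 11.07 and 11.43 in fed Bcl6LKO livers, against 11.53, 11.49, 11.96 and 11.91 in fed WT livers, a difference of -0.78 (SE 0.18, limma adjusted p = 0.00599). All Bcl6LKO libraries lay below all fed WT libraries, with Bcl6LKO replicate 4 close to them. Sqle had 9.53, 9.99, 10.49 and 10.57 in fed Bcl6LKO, against 10.74, 10.63, 10.85 and 11.04 in fed WT, a difference of -0.67 (SE 0.20, limma adjusted p = 0.0215). Dhcr7 had 10.18, 9.99, 10.20 and 10.64 in fed Bcl6LKO, against 10.70, 10.50, 10.97 and 11.13 in fed WT, a difference of -0.58 (SE 0.15, limma adjusted p = 0.0131). Lss (-0.65, SE 0.18), Mvk (-0.49, SE 0.12) and Ebp (-0.26, SE 0.07) were the others. Leaving out single libraries, the calls were lost for Sqle without Bcl6LKO replicate 2 or fed WT replicate 4, for Lss without Bcl6LKO replicate 1 or 2 and for Ebp without fed WT replicate 3 (limma adjusted p up to 0.0587).

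Fdps, Nsdhl and Hmgcs1, the enzymes with the largest fasting falls, were not called here. Fdps had 10.38, 10.50, 10.89 and 11.16 in fed Bcl6LKO livers, against 10.81, 10.54, 11.11 and 11.43 in fed WT livers, a difference of -0.24 (SE 0.20) that was not called. Hmgcs1 differed by -0.01 (SE 0.24) and Nsdhl by -0.35 (SE 0.15), neither called. Nsdhl was called lower without fed WT replicate 2 (limma adjusted p = 0.0160), without Bcl6LKO replicate 4 (limma adjusted p = 0.0257) and with equal totals (limma adjusted p = 0.00590). Mvd lay on the other side, at 0.46 (SE 0.27, limma adjusted p = 0.207), with 8.91 and 9.22 in Bcl6LKO replicates 3 and 4, against at most 8.38 in fed WT livers. Bcl6LKO replicate 4 held the highest level of its group for 18 of the 19 enzymes.

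Srebf2 was the control gene that fell. It had 9.57, 9.70, 9.85 and 9.91 in fed Bcl6LKO livers, against 10.15, 10.02, 10.16 and 10.21 in fed WT livers, a difference of -0.38 (SE 0.08, limma adjusted p = 0.00272) with no overlap. Insig1 had 11.51, 11.58, 12.25 and 12.35 in fed Bcl6LKO, against 12.08, 11.99, 12.20 and 12.26 in fed WT (-0.21, SE 0.17, not called). For this gene Bcl6LKO replicates 1 and 2 lay below the fed WT range, while replicate 3 lay near its top and replicate 4 above it. Insig2 had 10.86, 11.19, 11.42 and 10.76 in fed Bcl6LKO, against 11.36, 10.97, 10.71 and 10.86 in fed WT (0.08, SE 0.16). Scap had 11.54, 11.42, 11.48 and 11.74 in fed Bcl6LKO, against 11.43, 11.18, 11.52 and 11.74 in fed WT (0.08, SE 0.11). Neither gene was called.

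Stard4 fell by 0.48 (SE 0.12, limma adjusted p = 0.00823) in fed Bcl6LKO livers, and the other transport genes were not called. Abcg5 had 9.90, 9.67, 9.76 and 9.27 in fed Bcl6LKO livers, against 10.37, 10.04, 9.77 and 9.60 in fed WT livers (-0.29, SE 0.17). Abcg8 had 10.65, 10.45, 10.41 and 10.20 in fed Bcl6LKO, against 10.92, 10.60, 10.30 and 10.32 in fed WT (-0.10, SE 0.14). The groups overlapped for both. Abca1 (-0.13, SE 0.07) and Mylip (0.10, SE 0.12) were likewise not called.

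**Figure D4:**
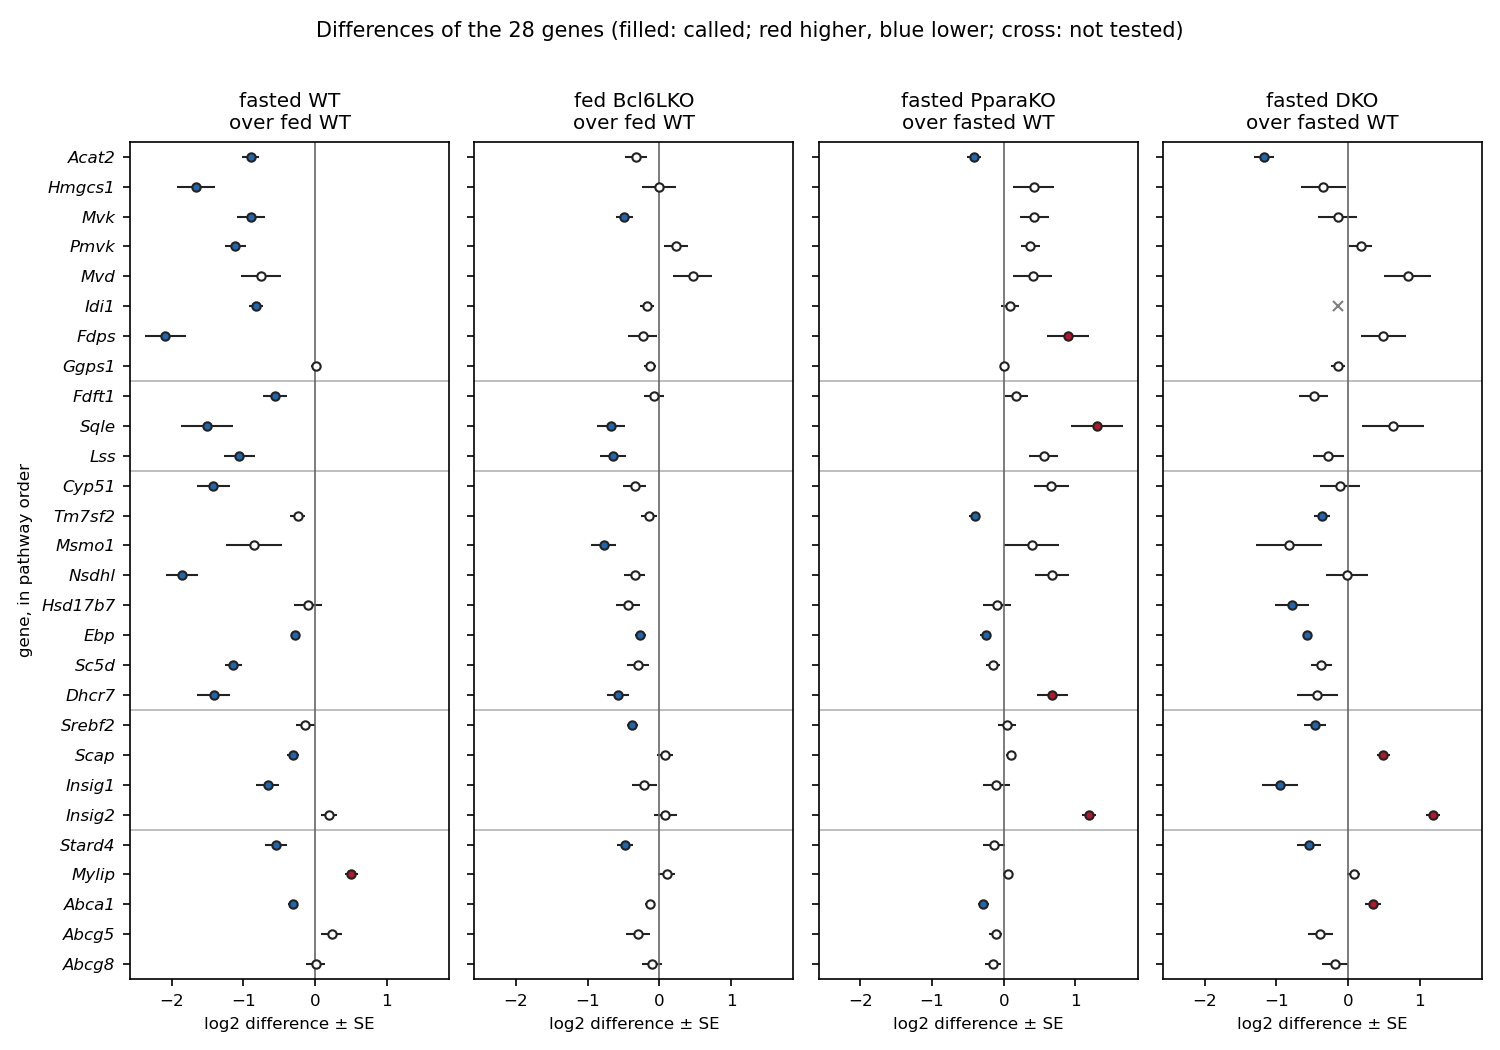
Log2 differences with standard errors (x axis) of the 28 genes in pathway order (y axis) for fasted WT over fed WT, fed Bcl6LKO over fed WT, fasted PparaKO over fasted WT and fasted DKO over fasted WT (n = 4 per group). Filled points were called (blue lower, red higher), open points were not, and the cross is Idi1, which was too low to be tested in the DKO table; the fasting panel holds 18 lower points, and Insig2 stands at 1.19 in both panels of Ppara-null livers.

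Among fasted livers, loss of Ppara changed Insig2 and few other genes. In PparaKO livers 4 of the 28 genes (14.3%) were higher than in fasted WT livers (Sqle, Insig2, Fdps and Dhcr7) and 4 (14.3%) were lower (Acat2, Tm7sf2, Abca1 and Ebp), shares near the 11.7% higher and 13.3% lower among 11932 tested genes. Of the 19 enzymes 3 were higher, 3 lower and 13 not called. Past a fold of 2 there were 2 genes, Sqle and Insig2, both higher, with 0.670% of all genes as background, and 0.905% were lower by as much. Group ranges were apart for 1 higher gene, Insig2, and 3 lower genes, against 12.8% and 13.9% of all genes. The median difference was 0.10, against 0.0055 over all tested genes, and 14 of the 19 enzymes had a positive difference. The count of higher genes was 7 without PparaKO replicate 4, fasted WT replicate 3 or fasted WT replicate 4, and was 2 without fasted WT replicate 1 and 1 without PparaKO replicate 1, 2 or 3 or fasted WT replicate 2. The lower count was 2 without PparaKO replicate 4, fasted WT replicate 2 or fasted WT replicate 3.

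Insig2 gave the clearest change with Ppara loss. This endoplasmic reticulum protein retains SCAP, and in liver one of its transcripts is known to be held down by insulin. It had 12.70, 12.51, 12.77 and 12.33 in fasted PparaKO livers, against 11.53, 11.36, 11.42 and 11.25 in fasted WT livers. Every PparaKO library exceeded every fasted WT library by a wide margin. The difference was 1.19 (SE 0.10, limma adjusted p = 1.05e-05), or 2.28 times the fasted WT level, and it was called under every alternative run. Its transcripts from different starts were counted as 1 gene.

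The other control genes were not called. Insig1 had 11.50, 11.32, 11.18 and 10.84 in fasted PparaKO livers, against 10.89, 11.07, 11.58 and 11.71 in fasted WT livers (-0.10, SE 0.18). Srebf2 had 10.11, 9.91, 10.21 and 9.99 in fasted PparaKO, against 9.69, 9.82, 10.22 and 10.31 in fasted WT (0.05, SE 0.13). For both genes the PparaKO libraries fell within or close to the wide range of the fasted WT libraries. Scap had 11.28, 11.11, 11.05 and 11.36 in fasted PparaKO, against 11.08, 11.06, 11.12 and 11.11 in fasted WT (0.10, SE 0.07).

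**Figure D5:**
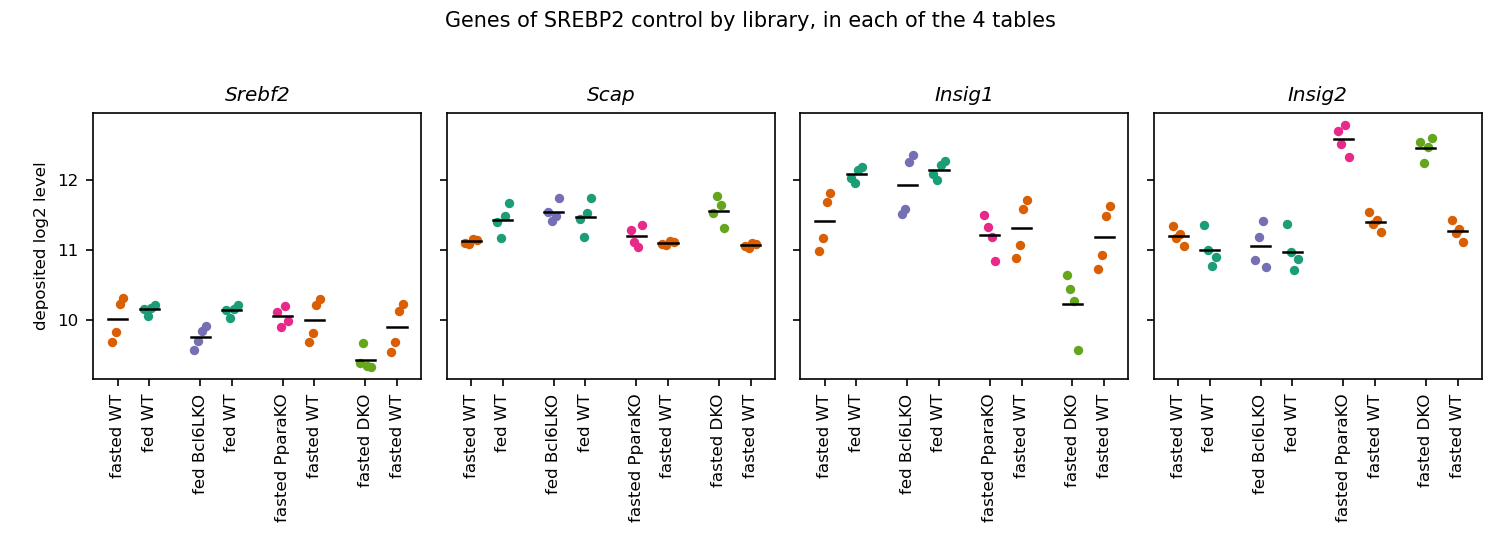
Deposited log2 levels (y axis) of Srebf2, Scap, Insig1 and Insig2 (1 panel each) in each library (points) with group means (bars), for the 4 tables from left to right (fasting, Bcl6 loss, Ppara loss, combined loss). Insig2 lies between 12.33 and 12.77 in PparaKO and between 12.23 and 12.59 in DKO libraries, above all fasted WT libraries, while Insig1 is lowest in DKO libraries; levels of different tables are on separate scales.

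Sqle had 10.57, 10.53, 10.65 and 9.97 in fasted PparaKO livers, against 8.04, 8.64, 9.98 and 9.86 in fasted WT livers. Only PparaKO replicate 4 fell within the range of fasted WT, of which replicates 1 and 2 were far lower. The difference was 1.30 (SE 0.37, limma adjusted p = 0.0239), with limma adjusted p-values between 0.00814 and 0.104 over the alternatives, and the call was lost without PparaKO replicate 1, 2 or 3 or fasted WT replicate 2. Fdps had 9.61, 9.48, 9.50 and 8.67 in fasted PparaKO, against 7.71, 7.98, 8.98 and 9.01 in fasted WT (0.90, SE 0.30, limma adjusted p = 0.0464). Dhcr7 had 10.08, 9.93, 9.78 and 9.53 in fasted PparaKO, against 8.52, 8.88, 9.59 and 9.61 in fasted WT (0.68, SE 0.22, limma adjusted p = 0.0429). As with Sqle, replicate 4 of PparaKO overlapped with fasted WT replicates 3 and 4 for Fdps and Dhcr7. Both calls were lost with no filter on low genes, with robust spread estimates and without PparaKO replicate 1, 2 or 3 or fasted WT replicate 1 or 2 (limma adjusted p between 0.0568 and 0.148).

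The fasting comparison used these fasted WT libraries, and gave Sqle, Fdps and Dhcr7 as lower than in fed WT livers, by -1.51, -2.09 and -1.42. Since the fasted WT libraries are shared, their values enter both comparisons. Fed and PparaKO livers were not in a table together and were not compared.

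The lower genes differed by less. Acat2 had 8.02, 7.82, 7.90 and 7.69 in fasted PparaKO livers, against 8.14, 8.18, 8.27 and 8.50 in fasted WT livers, a difference of -0.42 (SE 0.09, limma adjusted p = 0.00815). A close copy, Acat3, neighbours Acat2 on chromosome 17, and reads shared between them could have been lost or split. Tm7sf2, a sterol reductase whose exons share 12.1% of their bases with Vps51 on the same strand, fell by 0.41 (SE 0.08, limma adjusted p = 0.00293). The group ranges of both genes were apart. Ebp fell by 0.25 (SE 0.08, limma adjusted p = 0.0325), a call lost without any 1 library but PparaKO replicate 1 (limma adjusted p between 0.0520 and 0.0898).

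Abca1 had 12.31, 12.12, 12.37 and 12.07 in fasted PparaKO livers, against 12.46, 12.52, 12.55 and 12.47 in fasted WT livers, a difference of -0.29 (SE 0.08, limma adjusted p = 0.0192). All PparaKO libraries were below the fasted WT ones, but the call was lost with quantile normalisation (limma adjusted p = 0.274) and without PparaKO replicate 4 or fasted WT replicate 2 or 3 (limma adjusted p between 0.0511 and 0.0564). Abcg5 had 10.18, 10.05, 10.10 and 10.24 in fasted PparaKO, against 10.41, 10.43, 10.22 and 9.98 in fasted WT (-0.11, SE 0.09). Abcg8 had 10.20, 10.38, 10.36 and 10.61 in fasted PparaKO, against 10.74, 10.61, 10.54 and 10.26 in fasted WT (-0.15, SE 0.11). Neither was called, nor were Mylip (0.06, SE 0.07) and Stard4 (-0.14, SE 0.15). The enzymes left were not called and ranged between -0.15 (SE 0.10) in Sc5d and 0.68 (SE 0.24) in Nsdhl.

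With both Bcl6 and Ppara lost, 27 of the 28 genes could be tested, since Idi1 averaged 3.80 over the 8 libraries. Of these, 7 (25.9%) were lower in fasted DKO than in fasted WT livers (Acat2, Insig1, Hsd17b7, Ebp, Stard4, Srebf2 and Tm7sf2) and 3 (11.1%) were higher (Insig2, Scap and Abca1). Over 12004 tested genes, 20.8% were lower and 19.3% higher. Past a fold of 2 there was 1 gene in each direction, Acat2 lower and Insig2 higher, against 3.05% and 3.07% of all genes. Group ranges were apart for 4 lower and 3 higher genes, against 20.4% and 18.7%. The median difference was -0.28, against 0.0027 over all tested genes. The count of lower genes was 4 without DKO replicate 3, DKO replicate 4 or fasted WT replicate 3, and 3 without fasted WT replicate 4. With equal totals the split over all genes was 1590 higher and 3416 lower (31.8% higher) in place of 2314 and 2494 (48.1% higher).

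All 4 control genes were called, 2 higher and 2 lower, where 19.3% of all tested genes were higher and 20.8% lower. Insig2 had 12.53, 12.23, 12.47 and 12.59 in fasted DKO livers, against 11.43, 11.24, 11.30 and 11.11 in fasted WT livers, higher by 1.19 (SE 0.10, limma adjusted p = 6.04e-06). Insig1 had 10.65, 10.45, 10.27 and 9.57 in fasted DKO, against 10.72, 10.92, 11.48 and 11.62 in fasted WT, a difference of -0.95 (SE 0.25, limma adjusted p = 0.0114). The paralogues thus moved in opposite directions in the same libraries, each with no overlap between groups. Scap had 11.53, 11.76, 11.64 and 11.31 in fasted DKO, against 11.05, 11.03, 11.09 and 11.08 in fasted WT, higher by 0.49 (SE 0.09, limma adjusted p = 0.00178), and 13.2% of its exon bases lie opposite an annotated model of uncertain status. Srebf2 had 9.38, 9.68, 9.35 and 9.33 in fasted DKO, against 9.54, 9.69, 10.13 and 10.23 in fasted WT, a difference of -0.46 (SE 0.15, limma adjusted p = 0.0319) whose call was lost with quantile normalisation and without DKO replicate 1, 3 or 4 or fasted WT replicate 3 or 4 (limma adjusted p between 0.0598 and 0.0883).

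Acat2 was the enzyme with the largest difference between DKO and WT livers. It had 7.20, 7.17, 6.86 and 6.65 in fasted DKO livers, against 7.995, 8.04, 8.15 and 8.41 in fasted WT livers, a difference of -1.17 (SE 0.14, limma adjusted p = 7.64e-05), to 0.443 of the WT level. Ebp fell by 0.56 (SE 0.07, limma adjusted p = 1.09e-04), also without overlap. Hsd17b7, the ketosteroid reductase of sterol demethylation, had 9.90, 9.74, 9.23 and 9.33 in fasted DKO, against 10.08, 9.75, 10.85 and 10.67 in fasted WT. Its difference was -0.79 (SE 0.24, limma adjusted p = 0.0226), and that of Tm7sf2 was -0.36 (SE 0.11, limma adjusted p = 0.0263). The call of Hsd17b7 was lost without DKO replicate 3 or 4 or fasted WT replicate 3 or 4, and that of Tm7sf2 with quantile normalisation and without DKO replicate 3 or fasted WT replicate 2 or 4 (limma adjusted p between 0.0508 and 0.0924).

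The 3 enzymes called higher with Ppara loss alone were not called here. Sqle had 9.67, 9.77, 9.10 and 9.51 in fasted DKO livers, against 7.60, 8.34, 9.85 and 9.73 in fasted WT livers (0.63, SE 0.43). Fdps had 8.77, 8.81, 8.40 and 8.89 in fasted DKO, against 7.40, 7.72, 8.87 and 8.91 in fasted WT (0.49, SE 0.31). Dhcr7 had 8.85, 8.81, 8.31 and 7.997 in fasted DKO, against 8.20, 8.62, 9.42 and 9.44 in fasted WT (-0.43, SE 0.29). DKO libraries lay inside the spread of fasted WT libraries for Fdps and Sqle. DKO and PparaKO libraries stand in separate tables, so no difference between them was tested. The enzymes not called ranged between -0.83 (SE 0.46) in Msmo1 and 0.83 (SE 0.33) in Mvd.

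Abca1 had 12.79, 12.62, 12.84 and 13.20 in fasted DKO livers, against 12.47, 12.53, 12.56 and 12.47 in fasted WT livers. It was higher by 0.35 (SE 0.11, limma adjusted p = 0.0296) with no overlap, and this call was lost with equal totals (0.26) and without DKO replicate 3 or any 1 fasted WT library (limma adjusted p between 0.0501 and 0.0690 without those libraries). Against the same fasted WT libraries the gene was lower in PparaKO livers. Stard4 fell by 0.54 (SE 0.17, limma adjusted p = 0.0276), a call lost without DKO replicate 3 or 4 or fasted WT replicate 3 or 4 (limma adjusted p between 0.0608 and 0.0757). Abcg5 had 9.57, 9.48, 10.28 and 9.83 in fasted DKO, against 10.34, 10.37, 10.13 and 9.87 in fasted WT (-0.39, SE 0.17), and Abcg8 had 9.92, 10.06, 10.85 and 10.36 in fasted DKO, against 10.70, 10.56, 10.49 and 10.18 in fasted WT (-0.18, SE 0.19). In both, DKO replicate 3 stood above the other DKO libraries, and neither was called. Mylip differed by 0.08 (SE 0.10).

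Across the 4 comparisons, 24 of the 28 genes were called at least once, and Mvd, Ggps1, Abcg5 and Abcg8 were not. Ebp was lower in all 4. Both with fasting and with Bcl6 loss in fed liver, 2 comparisons that share the fed WT libraries, 6 genes were lower. Sqle, Fdps, Dhcr7, Scap and Abca1 were called in opposite directions in different comparisons. In single comparisons, 11.0% to 20.8% of all tested genes were lower and 11.7% to 19.3% higher. The shares of all genes called in any comparison, lower in several or called in opposite directions were not counted. These counts of the 28 genes therefore have no background to be read against.

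Neighbouring pathways were read from lists of 64 further genes. Of 13 other SREBP-responsive genes, 8 were lower and 1 higher in fasted than in fed WT livers, against 11.0% lower and 11.9% higher among all genes tested. Rdh11, a retinol dehydrogenase, fell by 1.53 (SE 0.16) and Acly, which supplies cytosolic acetyl-CoA, fell by 1.35 (SE 0.18), while Por, the electron donor of Cyp51 and other P450 enzymes, was higher by 1.40 (SE 0.10). With Bcl6 loss 4 were lower and 4 higher, where all genes gave 19.8% and 18.3%, among them Aacs (-1.81, SE 0.36), Fads1 (1.70, SE 0.12) and Tmem97 (1.23, SE 0.09). Ppara loss gave 1 lower and 2 higher (13.3% and 11.7% of all genes), and combined loss 5 lower and 3 higher (20.8% and 19.3% of all genes), with Aacs at -1.30 (SE 0.28) and Tmem97 at 1.23 (SE 0.12). The medians of this list were -0.62, -0.15, -0.0020 and -0.29 in the 4 comparisons.

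LXR, the receptor for oxysterols, was represented by its 2 genes and 5 targets. Srebf1, which encodes the fatty acid branch of the SREBP family, fell by 1.70 (SE 0.16, limma adjusted p = 1.00e-04) with fasting, the only call of 7 in that list. It was lower by -0.49 (SE 0.12) with Bcl6 loss, -0.94 (SE 0.15) with Ppara loss and -1.33 (SE 0.20) with combined loss. Scd1, the stearoyl-CoA desaturase, was lower by -2.05 (SE 0.32), -1.72 (SE 0.35) and -3.52 (SE 0.50) in those same 3 comparisons. Of the 7 genes, 3 were lower and 2 higher with Bcl6 loss, 4 lower and 0 higher with Ppara loss (1 higher at an unadjusted limma p under 0.05), and 4 lower and 1 higher with combined loss. Among all tested genes, 11.0% were lower and 11.9% higher with fasting, and 19.8% and 18.3% with Bcl6 loss. These shares were 13.3% and 11.7% with Ppara loss, and 20.8% and 19.3% with combined loss.

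Cholesterol leaves the liver partly as bile acid, and 4 of 5 sterol hydroxylases could be tested. Cyp7a1, the entry enzyme, was lower by -1.93 (SE 0.20) in fasted PparaKO and -1.10 (SE 0.31) in fasted DKO than in fasted WT livers. Cyp7b1, the oxysterol hydroxylase, was lower with fasting (-1.33, SE 0.17) and with Bcl6 loss (-2.37, SE 0.20), higher with Ppara loss (1.18, SE 0.13) and lower with combined loss (-0.81, SE 0.17). Cyp8b1 was higher with fasting (1.01, SE 0.22) and lower with Ppara loss (-0.54, SE 0.15) and combined loss (-1.74, SE 0.46). All 4 tested hydroxylases were lower in DKO livers, against 20.8% of all genes.

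The machinery that cuts SREBPs or degrades sterol-sensing proteins was read from 12 genes. Of these, 2 were higher and 2 lower with fasting, against 11.9% higher and 11.0% lower among all genes tested. With Bcl6 loss 0 were called by limma (2 at an unadjusted p under 0.05), against 18.3% higher and 19.8% lower. With Ppara loss 2 were higher and 1 lower, against 11.7% and 13.3%, and with combined loss 3 were higher and 2 lower, against 19.3% and 20.8%. Erlin1, which helps to recruit the ligase for INSIG-bound clients, was lower with fasting (-0.38, SE 0.08) and higher in PparaKO (0.31, SE 0.07) and DKO (0.87, SE 0.09) livers. Of 12 genes of the isoprenoid branch, between 1 and 3 were called per comparison, and the median lay between -0.06 and -0.0026. Among 15 genes of cholesterol storage and trafficking, 5 were higher and 2 lower with fasting, 6 and 3 with Bcl6 loss, 4 and 3 with Ppara loss, and 6 and 2 with combined loss. The shares of all genes given for the machinery above hold for these counts too, so 4 to 6 higher genes of 15 stood against 11.7% to 19.3%, and 2 to 3 lower ones against 11.0% to 20.8%. Soat2, which esterifies cholesterol, was higher by 0.73 (SE 0.16) in DKO livers, and Lcat was higher by 0.43 (SE 0.05) with fasting and by 0.57 (SE 0.06) with Bcl6 loss.

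Some markers of other cells were called in the same comparisons. Among all tested genes, 11.9% were higher and 11.0% lower with fasting, and 18.3% and 19.8% with Bcl6 loss. These shares were 11.7% and 13.3% with Ppara loss, and 19.3% and 20.8% with combined loss. Counts of 1 or 2 markers of 8 lie near them. Among 8 hepatocyte markers limma called 1 higher and 0 lower with fasting (1 lower at an unadjusted p under 0.05). These counts were 2 and 2 with Bcl6 loss, 2 and 1 with Ppara loss, and 3 and 1 with combined loss. Of 7 erythroid genes tested, 6 were higher and 1 lower in fasted than in fed WT livers, with summed back-transformed levels (in units of 1000) between 11.4 and 14.5 in fasted WT and between 5.10 and 7.50 in fed WT. In the fasting table Hba-a1 and Hba-a2 had identical means and differences (1.18, SE 0.16), and Hbb-bs and Hbb-b1 nearly so (both 1.38, SE 0.16). The members of these pairs are not separate evidence, and the sums may hold the same reads under more than 1 name. In DKO livers 6 of 7 were lower, between 6.15 and 8.61, against between 11.4 and 14.7 in fasted WT. With Bcl6 loss, 5 of 8 endothelial markers (8.48 to 9.74 in Bcl6LKO, 7.26 to 8.08 in fed WT) and 2 of 8 stellate markers were higher. With fasting 3 of 8 stellate markers were lower, Ppara loss gave 1 lower and combined loss 1 higher, and 3 of 8 endothelial markers were higher in DKO livers. Of 8 Kupffer cell markers limma called 1 higher with Bcl6 loss, 1 with Ppara loss, 2 with combined loss and 0 with fasting, where 0 were higher and 1 lower at an unadjusted p under 0.05. Few markers of rarer cells could be tested. Both tested neutrophil markers, S100a8 (0.61, SE 0.21) and S100a9 (0.65, SE 0.23), were higher in DKO livers, with summed levels between 0.0601 and 0.118 in DKO and between 0.0455 and 0.0520 in fasted WT. Ptprc, the 1 gene tested of 6 on the lymphocyte list, was higher with Bcl6 loss (0.27, SE 0.07). The rest of that list was too low to be tested, so lymphocytes could not be followed. Of 3 cholangiocyte markers tested with Bcl6 loss, Sox9 was lower (-1.29, SE 0.24), 2 were not called and the median was 0.05. Of 2 tested with combined loss, Sox9 was lower (-1.26, SE 0.20) and 1 was not called. Cela1, the 1 gene tested of 5 on the pancreas list, was lower with fasting (-0.77, SE 0.07) and Bcl6 loss (-1.001, SE 0.09). The pancreas genes Ctrb1 and Pnlip averaged only -1.73 and -2.09 in fasted WT livers of the fasting table, so Cela1 is not read as a measure of pancreas. The part of these cells in the changes of the 28 genes was not tested.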

How the data were processed

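Liver RNA libraries were compared within 4 deposited tables, each with 8 libraries of 2 groups and 24443 gene names. Per the labels and methods, the authors aligned stranded, ribosome-depleted reads to mm10 with STAR, counted exon reads with HOMER and ran DESeq2, which was not run here. The per-library values were deposited on a log2 scale, as a regularised logarithm gives, which draws low values towards the gene's mean. Read depth is therefore unknown. The tables also hold the authors' fold changes and p-values, which were not used. Annotated positions and exon overlaps are from GENCODE M21 on mm10.

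Genes listed at 0 throughout or with a mean under 4 were left out, and the values as deposited, with no pseudocount, were compared by limma 3.58.1 (R 4.3.3) with a spread trend, 2-sided. Errors are SE for differences. The fit was tested on simulated data. The 28 genes, the further lists and the tests were chosen with earlier results of these data known. Values per library are given for genes past a fold of 2, for the SREBP2 control genes, for Abcg5 and Abcg8 and for genes called in opposite directions, with some others chosen after their values were seen. From each further list at most 3 called genes are named per comparison. Fasted and fed libraries of the same number correlated in their deviations (r of 0.257, 0.133, 0.207 and 0.150, each highest with its own number), so for fasting the fit with the replicate block is given where it changes a call. No label pairs these libraries, and the block was chosen from the same data, so the calls it adds are tentative. In the other comparisons same-numbered libraries did not vary together in all pairs.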

Additional observations from a re-analysis of the deposited data

Results flagged for a closer look

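Of 224 sets of 4 libraries (28 genes in 8 groups), 7 held a library far from the other 3 by Dixon's test, where chance alone gives about 1 in 20. Of these, 5 concern PparaKO replicate 4, which was low for Hmgcs1 (10.88, against 11.92 to 12.02 in the other PparaKO libraries), Fdps (8.67, against 9.48 to 9.61), Lss (9.35, against 9.78 to 9.80), Msmo1 (10.60, against 11.27 to 11.39) and Hsd17b7 (10.03, against 10.42 to 10.50). These enzymes share libraries and are not separate pieces of evidence. Mylip was low in Bcl6LKO replicate 3 (7.11, against 7.49 to 7.52 in the other Bcl6LKO libraries). Srebf2 was high in DKO replicate 2 (9.68, against 9.33 to 9.38 in the other DKO libraries).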

How the results depend on the processing

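Of 45 calls among the 28 genes, 25 held under every alternative, 20 were lost under at least 1 and 0 changed direction. With libraries scaled to equal totals, fasting gave 4103 called genes (810 higher, 3293 lower), and Bcl6 loss gave 7868 (976 higher, 6892 lower), 19 of the 28 genes called, all 19 lower, and a median of -0.47. In other scalings and filters, Ppara loss gave 2 higher genes with no filter on low values, 2 lower genes with quantile normalisation, and 5 called genes, 1 of them higher, with robust spread estimates. Adding the replicate block gave 2 higher genes for fasting, where same-numbered libraries varied together though no label pairs them. In the other comparisons same-numbered libraries did not vary together in all pairs (r between -0.13 and 0.10), and the block gave 14 called genes, all 14 lower, for Bcl6 loss (adding Acat2, Fdps, Cyp51, Nsdhl, Hsd17b7 and Abcg5, limma adjusted p between 0.0121 and 0.0284), 2 higher for Ppara loss (without Fdps and Dhcr7, limma adjusted p of 0.0715 and 0.0724) and 3 lower for combined loss (without Stard4, Hsd17b7, Tm7sf2 and Srebf2, limma adjusted p between 0.0545 and 0.0696, while Mvd was added as higher at 0.0387). The block moved no other count of calls by more than 1.5 times. Exact permutation tests of single genes, which cannot go below p = 0.0286 with 4 libraries against 4, lost 14 of the 45 calls. Idi1, fitted in the DKO table with no filter, differed by -0.14 (SE 0.16, limma adjusted p = 0.563).

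Leaving out each library in turn, the median of the 28 genes for fasting lay between -0.84 and -0.50, with 1 to 2 higher genes, 2 without fed WT replicate 1. For Bcl6 loss 6 to 14 genes were called, all lower. For Ppara loss 3 to 10 were called, with 1 to 7 higher and 2 to 4 lower. For combined loss 6 to 10 were called, with 3 to 8 lower. The causes were not tested. With no read counts the precision of single values is unknown, and 4 libraries per group limit what could be called. Most comparisons rest on fasted WT libraries that differ widely in the enzymes.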
